A study of Homo sapiens with 2 samples.

Results

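The genes described here are small nucleolar RNA (snoRNA) host genes, measured in THP-1 cells and in a cytarabine-resistant line derived from them. They were chosen by name: every row called SNHG followed by a number, and a list of further hosts that included GAS5, ZFAS1, NOP56, NOP58, NCL, NPM1, TPT1 and RACK1. Of the 15 names on that list, 13 contributed a row, since HSPA8P matched none and DANCR lay in a part of chromosome 4 that was left out. This gave 40 of the 30856 gene rows, made up of 30 noncoding and 10 protein-coding genes. The nearest kept gene on that chromosome was SNHG8, starting at 118278709 (GRCh38). DANCR, outside the limit, starts at 52712325 and stood at 4.06 FPKM in parental and 1.75 FPKM in resistant cells.

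THP-1 is an established human acute monocytic leukaemia line. The parental group was untreated THP-1 cells, and the resistant group was THP-1 cells grown in cytarabine (Ara-C), a nucleoside analogue, raised in steps from 5 nM to 10 µM until they doubled as fast as untreated cells. Whether the resistant line was a single clone or a pool, and whether the drug was present at harvest, is not given in the sources used here. There was 1 library of poly(A) RNA in each group, so each difference below compares 2 libraries, has no replicate check and carries no test. The libraries held 57434972 counts (parental) and 58285463 counts (resistant). The 6 monocytic markers examined were at or above 1 FPKM in parental cells. All 6 were lower in resistant cells, with LYZ at 95.8 against 225 FPKM and CSF1R at 7.74 against 12.2 FPKM. MPO stood below 1 FPKM there, at 0.94 against 2.81 FPKM, while CD33, ITGAM and SPI1 differed less. The T cell marker CD3E stood at 0.01 and 0 FPKM in parental and resistant cells, and the fibroblast marker COL1A1 at 0.02 and 0.01 FPKM. The 3 erythroid markers had no row here.

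Host genes carry snoRNAs inside their introns. After splicing, the intron is trimmed to release the snoRNA, which guides ribose methylation (box C/D class) or pseudouridylation (box H/ACA class) of ribosomal RNA, and relatives called scaRNAs act on spliceosomal RNA. The spliced exons are the part that poly(A) selection retains. In protein-coding hosts they encode proteins, many of them of the ribosome or nucleolus, while in the SNHG genes they form a noncoding RNA that is often removed by nonsense-mediated decay. Many hosts begin transcription at a C followed by a run of pyrimidines, the start that also marks ribosomal protein genes and ties their translation to growth signals.

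The guides themselves show what the hosts hold. The deposited table listed 102 snoRNA and scaRNA rows lying wholly inside the 40 genes on the same strand, and together with GENCODE 29 at least 1 was found in 38 of them. None was matched inside GAS5 or NPM1. That is the outcome of this match by annotation and position, and does not show that these 2 genes hold no guide. The sequences below, from GENCODE 29 transcripts, are guides of the hosts that the results turn on. In the SNORD sequences capitals mark box C (TGATGA) and box D (CTGA), and in SNORA24 they mark the ACA that lies 3 bases from the end.
SNORA24, in SNHG8, chr4:118279190-118279320, plus strand: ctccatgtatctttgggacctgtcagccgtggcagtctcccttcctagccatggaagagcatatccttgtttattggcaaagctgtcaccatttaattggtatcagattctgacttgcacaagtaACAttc
SNORD12C, in ZFAS1, chr20:49278940-49279028, plus strand: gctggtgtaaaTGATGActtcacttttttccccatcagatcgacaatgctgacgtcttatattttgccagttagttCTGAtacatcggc
SNORD12B, in ZFAS1, chr20:49280319-49280409, plus strand: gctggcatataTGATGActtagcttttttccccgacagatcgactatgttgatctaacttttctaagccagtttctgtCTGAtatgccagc
SNORD50B, in SNHG5, chr6:85677589-85677658, minus strand: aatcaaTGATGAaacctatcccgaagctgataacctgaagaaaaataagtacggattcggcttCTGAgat
SNORD48, in SNHG32, chr6:31835263-31835326, plus strand: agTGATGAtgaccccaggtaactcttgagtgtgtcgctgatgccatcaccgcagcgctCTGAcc
SNORD104, in SNHG25, chr17:64146083-64146152, plus strand: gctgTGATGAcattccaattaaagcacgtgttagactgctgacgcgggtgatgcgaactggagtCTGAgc
SNORD60, in SNHG19, chr16:2155023-2155105, minus strand: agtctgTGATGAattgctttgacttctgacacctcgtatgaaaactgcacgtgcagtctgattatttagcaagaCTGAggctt
SNORD20, in NCL, chr2:231456444-231456523, minus strand: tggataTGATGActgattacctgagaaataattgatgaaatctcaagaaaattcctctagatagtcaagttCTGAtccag
Of 65 SNORD rows with a sequence, 50 held a TGATGA within the first 25 bases and a CTGA within the last 25. Of 29 SNORA rows, 18 held the ACA at that place.

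Most host genes stood slightly higher in the resistant library, the noncoding ones by more than the protein-coding ones. An FPKM of at least 1 in 1 library, the rule used here for an expressed gene, was reached by 33 of the 40 genes, 23 noncoding and 10 protein-coding. On the scale of log2((FPKM resistant + 1)/(FPKM parental + 1)), 28 of the 33 were above 0, against 46.3% of the 11388 expressed genes. The median was 0.19 for the 23 noncoding hosts and 0.05 for the 10 protein-coding hosts, beside -0.02 for all expressed genes and 0.04 for the 298 expressed long noncoding RNA genes. Of the 23 noncoding hosts 19 were above 0, against 54.4% of those 298. A log2 ratio of 0.32 was used as the size rule. It was reached in the higher direction by 6 of the 33 (9.66% of all expressed genes), and in the lower direction by 1 of the 33 (13.0% of all expressed genes), or 22.7% of all expressed genes in either direction. Of the 23 noncoding hosts 5 were higher by this rule, against 15.8% of the expressed long noncoding RNA genes. The 33 included 0 with a 2-fold difference, which 1.86% of all expressed genes had in either direction.

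The 6 higher genes were SNHG8, ZFAS1, SNHG5, SNHG32, SNHG29 and the histone chaperone gene NAP1L4, and the lower one was SNHG21. With a pseudocount of 5 FPKM in place of 1, SNHG5 (0.31), SNHG29 (0.29), NAP1L4 (0.30) and SNHG21 (-0.20) no longer reached the size rule, whereas SNHG8, ZFAS1 and SNHG32 did. SNHG29, at 0.33 just inside the rule, also missed it when centred on the median of its transcript class (0.28). Summed over the 23 expressed noncoding hosts, their share of the counts was 0.152% in parental and 0.186% in resistant cells, a fold of 1.22 (95% counting interval 1.21 to 1.23). The 10 protein-coding hosts took 0.605% and 0.629%, a fold of 1.04 (1.03 to 1.04). Here and below, a fold compares a gene's share of all counts between libraries, resistant over parental, with an exact 95% Clopper-Pearson interval. The intervals cover counting error only, without molecular identifiers and without any spread between cultures. The interval lay wholly above 1 for 22 of the 33 genes (33.7% of all expressed genes) and wholly below 1 for 3 (39.1% of all expressed genes).

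**Figure D1:**
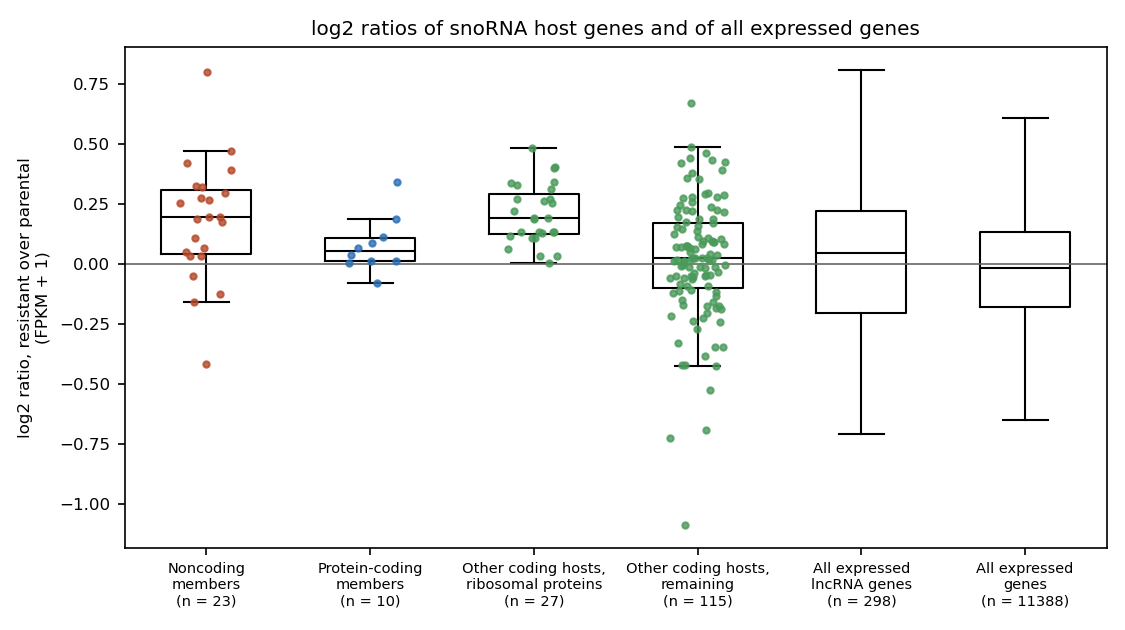
Log2 ratio, resistant over parental on the FPKM + 1 scale (vertical axis), for the expressed noncoding and protein-coding host genes, for other protein-coding genes that hold a snoRNA, and for all expressed long noncoding RNA genes and all expressed genes. Points are genes, boxes span the quartiles with the median as a line, and whiskers reach 1.5 times the box; the noncoding hosts have a median of 0.19 and all expressed genes one of -0.02.

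SNHG8, the host of SNORA24, had the highest ratio of the 33 genes. It lies on the plus strand of chromosome 4 from 118278709 to 118285316, and stood at 5.35 FPKM (2362 counts) in parental and 10.0 FPKM (4503 counts) in resistant cells, a fold of 1.88 (1.79 to 1.98). The serine protease gene PRSS12 lies on the opposite strand from 118280038 to 118353003, and 5279 bases of the 2 gene intervals overlap. PRSS12 stood at 6.84 FPKM (2614 counts) and 27.96 FPKM (10860 counts), a fold of 4.09 (3.92 to 4.27). In GENCODE 29, 2487 of the 5725 exonic bases of PRSS12 (43.4%) lie inside the interval that the deposited table gives to SNHG8. In that annotation SNHG8 itself ends at 118279823, before PRSS12, and the 2 genes share 0 exonic bases.

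The library kit keeps the strand of origin, but the strand setting of the counting is not given in the sources used here, so reads of SNHG8 and PRSS12 cannot be told apart with certainty. Of 16 other expressed genes within 5 Mb, 7 were above 0, with a median of -0.17 and a range from -0.60 to 1.05. SNHG8 (0.80) and PRSS12 (1.89) both stood above that median, and whether reads of one entered the count of the other was not tested. Without SNHG8, 5 hosts were higher by the size rule and the noncoding median was 0.19.

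**Figure D2:**
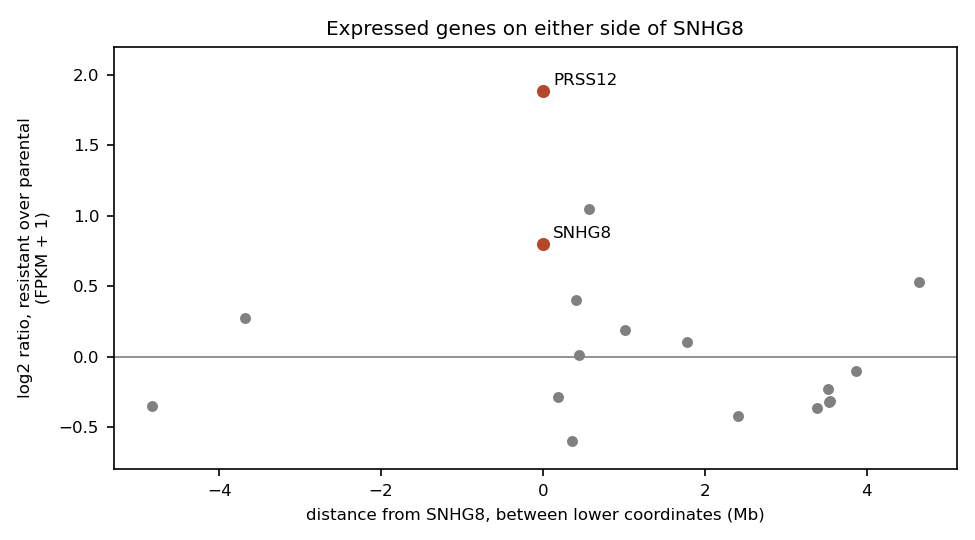
Log2 ratio, resistant over parental on the FPKM + 1 scale (vertical axis), of expressed genes against their distance from SNHG8 in Mb (horizontal axis, between the lower coordinates of the genes). SNHG8 (0.80) and the gene on its opposite strand, PRSS12 (1.89), are in red, and the 16 other genes within 5 Mb are in grey.

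ZFAS1, the host of the SNORD12 family, followed at 8.19 FPKM (4548 counts) in parental and 11.7 FPKM (6615 counts) in resistant cells, a fold of 1.43 (1.38 to 1.49). It overlaps the start of the opposite-strand gene ZNFX1 by 249 bases on chromosome 20. ZNFX1 had 3541 and 3521 counts, and the interval of its fold (0.935 to 1.03) held 1. SNHG5, which holds SNORD50B, stood at 9.15 FPKM (7714 counts) and 12.6 FPKM (10767 counts), a fold of 1.38 (1.34 to 1.42). SNHG32, which holds SNORD48 and SNORD52 and lies in the major histocompatibility region of chromosome 6 (31834608 to 31839764), stood at 70.5 FPKM (8466 counts) and 92.6 FPKM (11313 counts), a fold of 1.32 (1.28 to 1.35). SNHG29, which holds SNORD49A and SNORD65, stood at 24.5 FPKM (11730 counts) and 30.9 FPKM (15079 counts), a fold of 1.27 (1.24 to 1.298). In each of these 4 genes the resistant library was the higher one, from at least 4548 counts.

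A second tier of noncoding hosts was higher by less than the size rule, most of them with counting intervals above 1. The pseudocount of 1 FPKM, which shrinks ratios of low genes, bears on where this tier begins. With 0.1 FPKM in its place, SNHG12 (0.34) and SNHG25 (0.52) reached the rule. By counts, SNHG12 had a fold of 1.27, as did SNHG29. SNHG12, a host of 5 snoRNA rows, stood at 5.62 FPKM in parental and 7.13 FPKM in resistant cells (fold 1.27, 1.19 to 1.36). SNHG1, which holds SNORD22, SNORD25 to SNORD28 and SNORD30, stood at 31.1 and 37.8 FPKM (fold 1.22, 1.18 to 1.254). GAS5, known for its rise when growth stops, stood at 26.5 and 31.8 FPKM (fold 1.20, 1.17 to 1.24). On its opposite strand, over 801 bases, ZBTB37 was lower in resistant cells, with 1466 counts against 1761. SNHG19, the short host of SNORD60, stood at 11.9 and 14.5 FPKM from 272 and 337 counts, so its fold of 1.22 had a wide interval (1.04 to 1.44).

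SNHG26, the host of SNORD93, stood at 1.76 FPKM in parental and 2.16 FPKM in resistant cells (fold 1.24, 1.12 to 1.37). SNHG6, the host of SNORD87, stood at 77.4 and 88.6 FPKM (fold 1.15, 1.11 to 1.19), and SNHG7, the host of SNORA17A and SNORA17B, at 15.3 and 17.5 FPKM (fold 1.15, 1.11 to 1.19). EPB41L4A-AS1, which holds SNORA13, stood at 5.79 and 6.65 FPKM (fold 1.15, 1.07 to 1.23). Each of these 4 was thus higher in the resistant library by a smaller margin than SNHG5 or ZFAS1. On the opposite strand of SNHG7, over 3377 bases, DIPK1B was lower in resistant cells, with 1597 counts against 1951. SNHG25, a host of SNORD104, stood at 1.07 and 1.58 FPKM, but from 21 and 30 counts, and its interval (0.780 to 2.59) held 1.

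The remaining noncoding hosts were close to equal or lower. SNHG3, which holds SNORA73A and SNORA73B, stood at 19.0 FPKM in parental and 20.6 FPKM in resistant cells (fold 1.08, 1.04 to 1.13), and SNHG16, the host of the SNORD1 family, at 14.7 and 15.4 FPKM (fold 1.05, 1.01 to 1.09). Intervals that held 1 were found for SNHG15 (8.91 and 9.24 FPKM), SNHG17 (3.10 and 3.19 FPKM), SNHG20 (2.11 and 2.18 FPKM), SNHG4 (10.1 and 9.69 FPKM) and SNHG30 (3.37 and 2.92 FPKM). SNHG10, the host of SCARNA13, was lower at 0.90 against 1.07 FPKM (fold 0.852, 0.734 to 0.988), from 391 counts in parental and 338 in resistant cells. On its opposite strand, over 1116 bases, GLRX5 had 3281 and 3486 counts. Whether reads of GLRX5 entered the count of SNHG10 was not tested. SNHG21, the host of SCARNA15, had the lowest ratio, at 3.13 FPKM (221 counts) in parental cells and 2.09 FPKM (151 counts) in resistant ones, a fold of 0.673 (0.544 to 0.832). A same-strand row without a gene symbol, AC105339, overlaps SNHG21 and had 219 and 195 counts, so the split of reads between them is uncertain. Of the hosts of scaRNAs that were expressed (SNHG10, SNHG20 and SNHG21), none had an interval above 1. Such an interval was found for 33.7% of all expressed genes, and so few hosts cannot be set apart from that share.

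**Figure D3:**
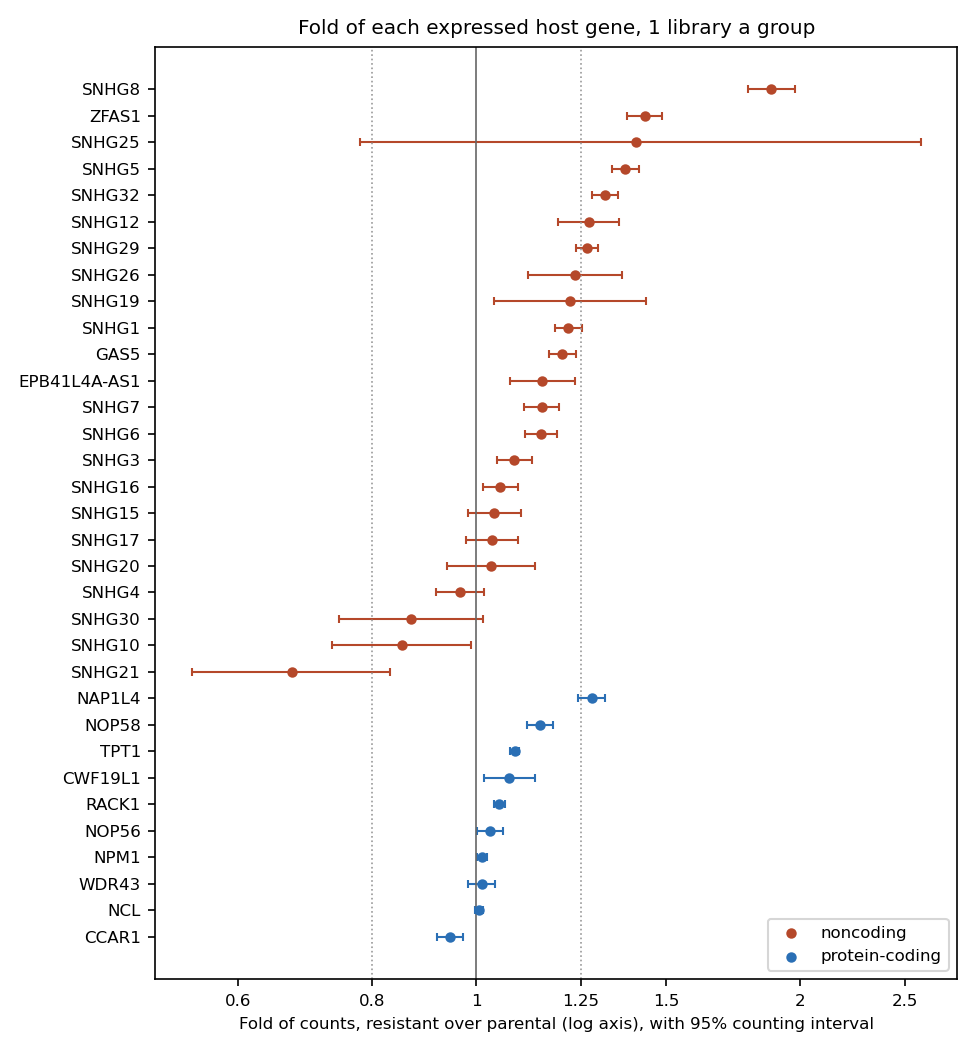
Fold between libraries in the share of counts, resistant over parental (horizontal log axis), for each expressed host gene. Bars are exact 95% counting intervals from 1 library a group. The solid line marks equal levels, and dotted lines mark a log2 of 0.32 of this count fold either way. The size rule of the text is instead on the FPKM + 1 scale. SNHG12 (fold 1.27, log2 ratio 0.296) and SNHG25 (fold 1.41, log2 ratio 0.318) therefore lie beyond a dotted line without reaching the rule. SNHG8 stands at 1.88 and SNHG21 at 0.673, with the 10 protein-coding hosts between 0.945 and 1.28.

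Among the protein-coding hosts, those for abundant nucleolar proteins were nearly equal in both libraries. NPM1, a nucleolar chaperone that is often mutated in acute myeloid leukaemia, stood at 277 FPKM in parental and 279 FPKM in resistant cells (fold 1.01, 1.00 to 1.02). NCL, which encodes nucleolin, stood at 229.4 and 229.8 FPKM from 104265 and 106275 counts (fold 1.00, 0.996 to 1.01). WDR43, a factor of small ribosomal subunit assembly, stood at 33.4 and 33.7 FPKM (fold 1.01, 0.982 to 1.04). At these depths a difference as large as that of the second tier of noncoding hosts would have been outside the counting error.

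NOP56 and NOP58 encode the paired core proteins of box C/D particles and themselves hold box C/D snoRNAs. NOP56 stood at 30.7 FPKM in parental and 31.5 FPKM in resistant cells (fold 1.03, 1.00 to 1.06), while NOP58 stood at 39.9 and 45.6 FPKM (fold 1.15, 1.11 to 1.18). Their intervals do not overlap, so within these 2 libraries the partners differed by unequal folds. TPT1, the translationally controlled tumour protein gene, stood at 156 and 168 FPKM (fold 1.09, 1.07 to 1.10), and RACK1, a scaffold protein of the small ribosomal subunit, at 127 and 133 FPKM (fold 1.05, 1.04 to 1.06). CWF19L1, the host of SNORA12, stood at 9.40 and 10.1 FPKM (fold 1.07, 1.02 to 1.13). CCAR1, a transcriptional coactivator gene that holds SNORD98, was the one protein-coding host with an interval below 1, at 24.6 against 26.1 FPKM (fold 0.945, 0.920 to 0.972).

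NAP1L4, a histone chaperone gene on chromosome 11 (2944431 to 2992377) that holds SNORA54, had the highest fold of the protein-coding hosts. It stood at 24.0 FPKM in parental and 30.6 FPKM in resistant cells, a fold of 1.28 (1.24 to 1.32). The 20 expressed genes nearest to it had a median log2 ratio of 0.28, close to its own 0.34, and 16 of them were above 0. The genes around SNHG7 on chromosome 9 also stood higher, with a median of 0.26 beside 0.19 for SNHG7 itself. For the other 31 expressed hosts the median of the 20 neighbours lay within 0.12 of 0. Of the 23 noncoding hosts, 19 had a ratio above the median of their neighbours, as did 5 of the 10 protein-coding hosts.

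**Figure D4:**
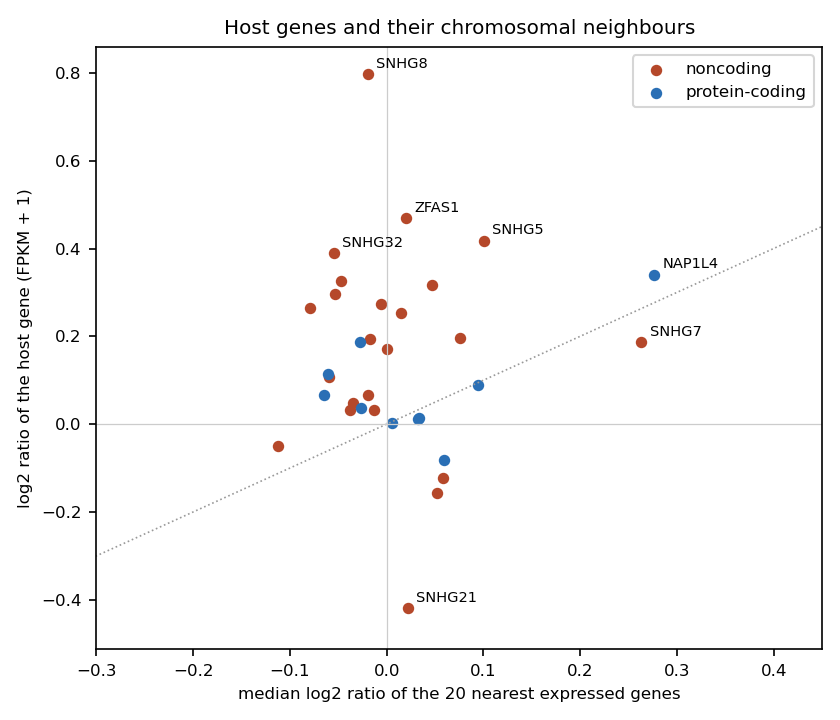
Log2 ratio of each expressed host gene (vertical axis) against the median log2 ratio of the 20 expressed genes nearest to it on its chromosome (horizontal axis), both on the FPKM + 1 scale, resistant over parental; the dotted line marks equal values. SNHG8 (0.80) and ZFAS1 (0.47) lie well above neighbours near 0, whereas NAP1L4 (0.34) lies beside neighbours at 0.28.

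Levels spread over more than 2 orders of magnitude, from NPM1 at 277 FPKM to SNHG25 and SNHG10, both at 1.07 FPKM, in parental cells. NPM1, NCL, TPT1 and RACK1 were the highest of the 40 genes in both libraries, each above 127 FPKM, followed by the noncoding SNHG6 and SNHG32. The order of SNHG6 and SNHG32 differed between libraries, SNHG6 being ahead in parental cells (77.4 against 70.5 FPKM) and SNHG32 in resistant cells (92.6 against 88.6 FPKM). Levels per length carry a limit here. Counts divided by FPKM and library total gave implied lengths from 342 (SNHG25) to 14679 bases (SNHG5) among expressed hosts, and for 8 of 39 hosts with a value this exceeded the span of the gene on the chromosome. Levels of different hosts are therefore read as approximate, whereas the ratio of a gene between libraries does not depend on its length.

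**Figure D5:**
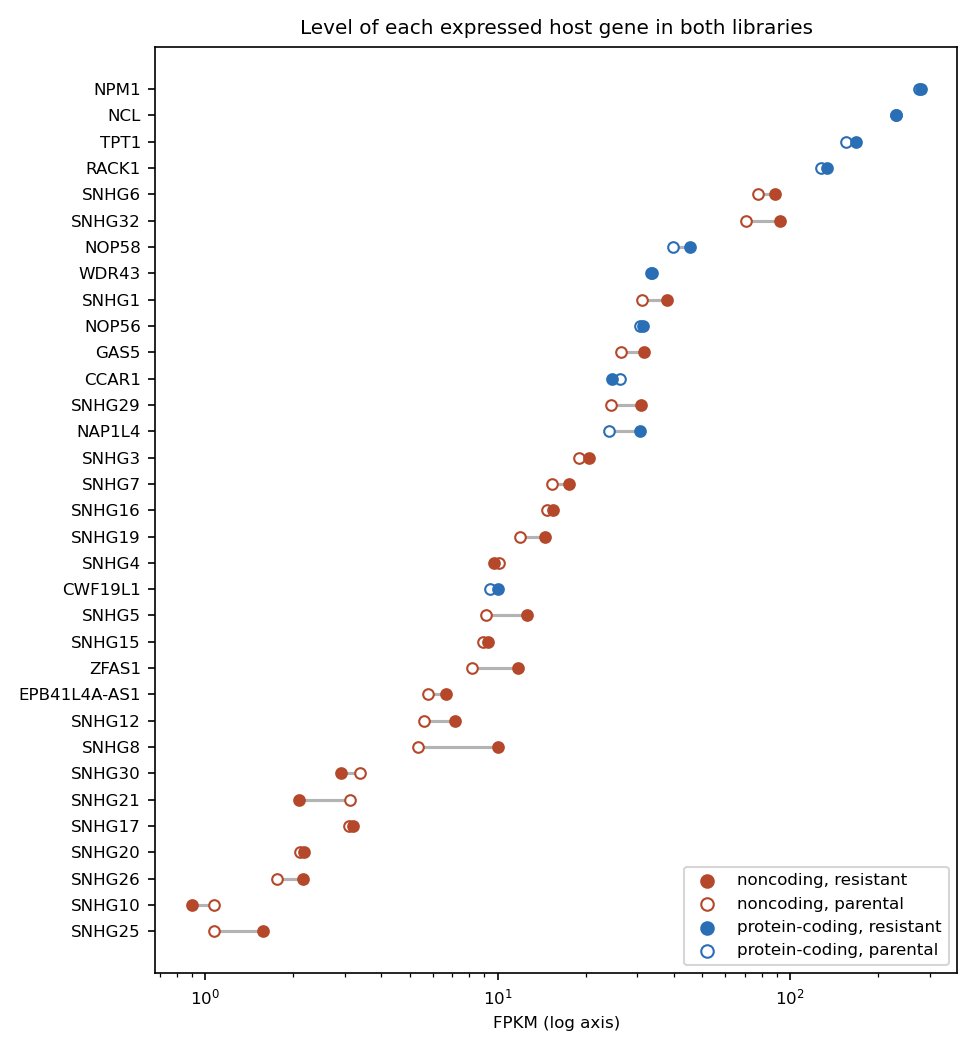
FPKM of each expressed host gene (horizontal log axis) in the parental library (open circles) and the resistant library (filled circles), with genes in order of the parental level. NPM1 is highest at 277 and 279 FPKM, and the widest gap between circles is that of SNHG8, at 5.35 and 10.0 FPKM.

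The other 7 hosts, all noncoding, stayed below 1 FPKM in both libraries. SNHG14, the long host of the imprinted SNORD115 and SNORD116 clusters on chromosome 15, stood at 0.43 FPKM in parental and 0.55 FPKM in resistant cells, yet from 3519 and 4578 counts (fold 1.28, 1.23 to 1.34). SNRPN, which overlaps its start on the same strand, had 2588 and 3363 counts (fold 1.28, 1.22 to 1.35), a value very near that of SNHG14. UBE3A, on the opposite strand, had 6300 and 6146 counts (fold 0.961, 0.928 to 0.996). SNHG28 had 23 counts in parental and 0 in resistant cells, but it lies wholly inside a same-strand row without a gene symbol, AL590560, which had 80 and 102 counts. Together they had 103 and 102 counts (fold 0.976, 0.735 to 1.296), so the split of reads between them is uncertain. SNHG27 had 0 and 6 counts, and a count of 0 allows up to 3 counts. SNHG9, SNHG11, SNHG22 and SNHG31 had intervals that held 1.

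Other genes overlap some hosts on the same strand, and the counting can split reads between them. SNHG4 lies inside the interval of MATR3, a nuclear matrix protein gene, which stood at 24.5 FPKM in parental cells and 16.7 FPKM in resistant ones (fold 0.684, 0.664 to 0.705), whereas SNHG4 had a fold of 0.965 (0.917 to 1.02). SNHG20 overlaps SEC14L1, which had 1705 counts against 2474 (fold 0.679, 0.638 to 0.723), beside a fold of 1.03 (0.938 to 1.13) for SNHG20. SNHG3 lies in RCC1, the guanine nucleotide exchange factor of RAN, and the folds were alike at 1.08 for both. The other same-strand rows held few counts, with 34 and 25 for AL513534 in CCAR1, 15 and 10 for PWAR5 in SNHG14, and 16 and 0 for RPL10P6 in SNHG31. Among the 33 expressed hosts, 5 had such a same-strand gene with at least 10 counts. An opposite-strand gene with at least 10 counts was found for 16.

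Starts of the noncoding hosts were compared in RefSeq (GRCh38.p14), which matched 35 of the 40 genes; the annotated start nearest to that of the deposited table was used. The feature searched was a C at the first transcribed base followed by at least 4 pyrimidines (C or T) on the transcribed strand. The sequences below run from 20 bases before to 29 bases after the first base, with that run in capitals. They are the 6 noncoding hosts that have it, then SNHG8 and SNHG29, which were also higher by the size rule but lack it.
SNHG32, chr6:31834896-31834945, plus strand: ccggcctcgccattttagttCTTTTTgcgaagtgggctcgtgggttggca
SNHG5, chr6:85678704-85678753, minus strand: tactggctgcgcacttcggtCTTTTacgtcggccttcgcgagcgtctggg
SNHG19, chr16:2155329-2155378, minus strand: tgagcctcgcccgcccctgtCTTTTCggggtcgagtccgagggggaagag
ZFAS1, chr20:49278622-49278671, plus strand: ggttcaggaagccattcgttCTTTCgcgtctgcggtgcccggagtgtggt
SNHG12, chr1:28581844-28581893, minus strand: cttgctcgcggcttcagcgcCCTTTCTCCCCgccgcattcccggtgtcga
SNHG4, chr5:139274081-139274130, plus strand: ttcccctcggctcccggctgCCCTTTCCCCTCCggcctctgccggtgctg
SNHG8, chr4:118278742-118278791, plus strand: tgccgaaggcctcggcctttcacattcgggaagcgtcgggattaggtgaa
SNHG29, chr17:16438967-16439016, plus strand: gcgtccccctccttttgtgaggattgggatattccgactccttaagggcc
Among the 35 matched genes 8 held the run, TPT1 and RACK1 besides these 6. It stood at 4.07% of 35116 RefSeq starts on chromosomes and at 5.76% of 8634 expressed genes matched by symbol. Among 66 expressed ribosomal protein genes the share was 65.2%. The mirrored run on the opposite strand, leading away from the start, was found at 1.93% of all starts and at 0 of the 35.

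The 6 noncoding hosts with the run had a median log2 ratio of 0.34, with 5 of 6 above 0, beside 0.14 for the 14 expressed and matched noncoding hosts without it, of which 11 were above 0. SNHG4, with the longest run (13 bases), stood at -0.05. Across all 497 expressed genes with the run at an annotated start the median was -0.02, as it was for the 8137 without it (-0.02). For these genes the first listed start of each symbol was used, not the nearest one. With the 40 genes and the ribosomal protein genes left out, the median was -0.04 for 445 with the run (42.5% above 0). It was -0.02 for the 8094 without the run (45.1% above 0). The run is a description of annotated starts. In 18 of the 35 genes this start lay within 50 bases of the one in the deposited table. Among the genes with the run it lay farther away for ZFAS1 (464 bases), SNHG32 (308), TPT1 (101) and RACK1 (4190). The comparison of medians by the run therefore includes ZFAS1 and SNHG32 with starts that differ between the annotations.

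The snoRNA rows themselves were sparse. Mature snoRNAs have no poly(A) tail, so these libraries are not a measure of their level. Of the 102 rows inside the hosts, 53 had exactly 1 count in each library and 10 had 0 in both, and 14 reached 10 counts in a library. Summed over the 102 rows there were 387 counts in parental and 560 in resistant cells (fold 1.426, 1.2504 to 1.63), beside 1268 and 1570 (fold 1.22, 1.13 to 1.31) for the 301 snoRNA rows elsewhere. Most of the difference inside the hosts came from SNORA73B, SNORA71B, SNORA75 and the unnamed row AC009065 (2 and 28 counts), so the sum does not describe the rows in general. The highest count was that of SNORA73B in SNHG3, the guide of an early ribosomal RNA cleavage, at 77 in parental and 137 in resistant cells (fold 1.75, 1.32 to 2.35). SNORA71B in SNHG17 had 32 and 66 counts (fold 2.03, 1.31 to 3.20), and SNORA75 in NCL had 10 and 35 (fold 3.45, 1.67 to 7.81). SNORA73B, SNORA71B and SNORA75 are box H/ACA guides, and each stood higher relative to parental cells than its host did. They were the only SNORA rows inside the hosts to reach 10 counts. SNORA rows below that stood in both directions, such as SNORA31 (6 and 1 counts) and SNORA13 (6 and 9 counts). The 3 rows therefore do not describe box H/ACA guides in general.

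The box C/D rows that reached 10 counts stood in both directions. SNORD11 in NOP58 had 8 counts in parental and 20 in resistant cells (fold 2.46, 1.04 to 6.47), whereas SNORD20 in NCL had 26 and 13 (fold 0.493, 0.232 to 0.994). Of the 3 snoRNA rows in NCL, SNORA75 and SNORD20 thus stood in opposite directions, from few counts, inside a host that was nearly equal in both libraries. SNORD82, the third, had 2 counts in each. SNORD104 in SNHG25 had 28 and 46 counts (fold 1.62, 0.991 to 2.69), more than its host with 21 and 30, and SNORD48 in SNHG32 had 38 and 48 (fold 1.24, 0.796 to 1.96). Intervals that held 1 were also found for SNORD70B, SNORD1B, SNORD12B, SNORD12C, SNORD99 and SNORD60. SNORD60 (14 and 8 counts) shares 80 bases with a row without a gene symbol, AC009065 (2 and 28 counts), so their reads cannot be told apart. SNORD11, SNORD70B, SNORD1B, SNORD12B and AC009065 reached 10 counts only in the resistant library, and SNORD60 only in the parental one. Such rows were named through their higher library, which favours a fold away from 1, so their folds and intervals are descriptions only.

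Hosts outside the chosen names were found by position, as any other gene with a snoRNA row wholly inside it on the same strand. Of 152 such expressed genes, 98 were above 0 (64.5%, beside 46.3% of all expressed genes), with a median log2 ratio of 0.07. By the size rule 18 were higher (11.8%, beside 9.66% of all expressed genes) and 13 were lower (8.55%, beside 13.0%). Some are joint rows beside a single gene of the pair, as SENP3-EIF4A1 (-1.30) and EIF4A1 (0.67), or ATP6V1G2-DDX39B (0.53) and DDX39B (-0.33). The split of reads between such rows is uncertain. NSD2 (-1.09) was kept here, though it lies in the part of chromosome 4 left out of the chosen genes. The 27 of the 152 that encode ribosomal proteins had a median of 0.19 and 27 of 27 were above 0. The 115 other protein-coding hosts had a median of 0.02 with 65 above 0. The median of the noncoding hosts described above, 0.19, was near that of the ribosomal protein hosts, and that of the 10 protein-coding hosts, 0.05, near that of the other coding hosts. Ribosomal protein genes as a whole, 82 expressed rows, had 77 above 0 and a median of 0.17, with RPL27A at 109 against 77.9 FPKM, and RPL9 (38.6 against 56.3 FPKM) and RPS10 (237 against 329 FPKM) lower.

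Genes that build and load the guide particles stood in both directions. Among all expressed genes, 46.3% were above 0 and 22.7% passed the size rule in either direction. Of the 9 core proteins of snoRNA particles, which include NOP56 and NOP58, 7 were above 0 (median 0.08). RRP9, which binds the U3 guide, stood at 30.2 FPKM in parental cells and 40.0 FPKM in resistant ones, and the box C/D protein SNU13 at 38.5 and 44.8 FPKM. The box H/ACA protein NOP10 was lower, with 2580 counts against 3260 (fold 0.780, 0.740 to 0.821). Of the 14 assembly factors 4 were above 0 (median -0.06), with PIH1D1, a subunit of the R2TP chaperone complex, at 15.2 against 20.8 FPKM, SHQ1, a chaperone of dyskerin, at 3.55 against 4.43 FPKM, and ZNHIT6, a box C/D assembly factor, higher at 7.08 against 5.69 FPKM. Of 20 genes of RNA polymerase I and ribosome assembly, 15 were above 0 (median 0.12) and 0 passed the size rule, with TAF1D at 18.2 against 15.1, NOL6 at 47.0 against 39.5 and TAF1B at 3.54 against 4.50 FPKM.

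Nonsense-mediated decay factors, which limit the spliced RNA of many noncoding hosts, were mostly above 0. Of 13 expressed, 10 were above 0 (46.3% of all expressed genes), with a median of 0.13. The exon junction protein RBM8A stood at 34.4 FPKM in parental cells and 44.3 FPKM in resistant ones, UPF3A at 13.1 and 15.3 FPKM, and the exon junction helicase EIF4A3 was lower at 19.0 against 23.5 FPKM. Of 7 expressed mRNAs known as targets of this decay, 5 were above 0 (46.3% of all expressed genes; median 0.19) and 3 were higher by the size rule (9.66% of all expressed genes). The 3 were PDRG1 (13.9 against 9.99 FPKM), DDIT3 (8.40 against 6.31 FPKM) and GADD45B (5.40 against 4.07 FPKM).

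Of 15 other mRNAs with a pyrimidine start, such as elongation factor genes, 10 were above 0 (46.3% of all expressed genes), with a median of 0.06. EIF3F stood at 13.8 against 10.6 FPKM, EEF1A1 at 1798 against 1557 FPKM and EIF4B at 82.2 against 73.5 FPKM. Of the 7 genes that regulate such mRNAs, 5 were above 0 (median 0.03). None of the 7 passed the size rule, which 22.7% of all expressed genes did in either direction. Among them EIF4EBP1 stood at 88.5 against 75.8 FPKM, EIF4EBP2 at 30.7 against 35.0 FPKM and LARP4 at 6.69 against 6.02 FPKM.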

How the data were processed

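Gene expression was measured in 1 parental and 1 cytarabine-resistant THP-1 library. The submitters' processing notes name edgeR, DESeq2, StringTie 1.3.4d, HISAT2 2.0.4, cutadapt 1.9 and GRCh38, with no role or order; annotation release, strand setting and multi-mapping rule are not given in the sources used here. Per the file headers, the authors deposited FPKM values (normalised by them to length and library size) and raw counts. Of 30856 rows, 22880 had a symbol other than a clone name, and 11388 of these reached 1 FPKM in a library.

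Ratios used a pseudocount of 1 FPKM, and size rules of 0.32 on the log2 scale and of 2-fold took the place of a test. Members, lists and rules were chosen with earlier results of these data known. Named genes were every member, the 3 members of each list with the largest absolute ratio, snoRNA rows with at least 10 counts and overlapping genes of the same strand; opposite-strand genes were named after their values were seen. snoRNA and exon positions came from GENCODE 29, also on GRCh38, and starts from RefSeq. Ribosomal protein genes were found by name pattern. Ratios, intervals and size rules were tested on simulated data. Alternatives covered pseudocount, minimum, scaling, values and overlapping members. Calculations ran in Python 3.11.15 with scipy 1.17.1, numpy 2.4.6 and pandas 2.3.3, and figures in matplotlib 3.10.9.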

Additional observations from a re-analysis of the deposited data

How the results depend on the processing

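With a pseudocount of 5 FPKM, which shrinks ratios of low genes by construction, 3 hosts were higher by the size rule (6 with 1 FPKM) and 0 lower (1 with 1 FPKM), and the noncoding median was 0.12. With a minimum of 5 FPKM, which drops SNHG21, 0 were lower, and the medians were 0.18 over 26 hosts and 0.26 over 16 noncoding hosts. Without the hosts that overlap a same-strand gene, again without SNHG21, 0 were lower, and the medians were 0.19 for the expressed hosts and 0.25 for the noncoding ones. The other settings, among them CPM, centring and size factors, left 4 to 8 hosts higher by the size rule; 2 of them, leaving out SNHG8 or hosts with an abundant opposite-strand gene, were chosen after seeing the data. Of 198 single values under 6 settings, 28 moved by more than the counting error and 0 reversed a called value. SNHG17 and SNHG20 came below 0 when centred on the median of their transcript class (both -0.01). No paired analysis was possible because each group had 1 library; leaving out a library leaves no comparison. Depth limits SNHG25, SNHG19, SNHG21 and the snoRNA rows most.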

Other observations

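Across the 403 snoRNA and scaRNA rows of the deposited table, 137 had exactly 1 count in each library, and 56 of these were listed at 0 FPKM in both. A further 55 rows had 0 counts in both libraries, and 65 rows reached 10 counts. The rows inside the hosts held 53 of the 137.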
